A study of Mus musculus with 12 samples.

Results

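The antibody genes of the mouse were followed through RNA of CD8+ T cells, the cytotoxic T lymphocytes, which make no antibody. The set holds the genes whose symbol starts with Ighv, Igkv, Iglv, Ighg, Igkc, Iglc or Igkj, together with Ighm, Ighd, Igha, Ighe and Jchain, as far as their read counts summed to at least 60 over all 12 libraries. Of 367 genes with such symbols among 50600 gene identifiers, 134 reached that minimum, 129 had at least 1 count but fewer than 60, and 104 had none. The members were thus chosen by their summed counts, and a high level of a member is not a finding. Just inside the minimum lay Igkv4-80 with 61 counts and Ighe and Igkv4-74 with 60 each, and just outside lay Igkv4-61 with 58 and Ighv11-2 and Ighv2-3 with 57 each.

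The libraries came from lymph node CD8+ T cells of male C57BL/6J mice, 8 weeks old, that lived in constant darkness. Day 2 had 6 libraries, 1 at each of circadian time (CT) 2, 6, 10, 14, 18 and 22 h, and day 1 had 6 at the same times. No genotype, drug or other treatment separates the groups. The labels do not say that samples were separate animals or how many mice went into one, so the p-values below reflect the spread between samples, which may be technical.

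A B cell builds its antibody from gene pieces. It joins V, D and J segments for the heavy chain and V and J segments for a kappa or lambda light chain, and each finished chain ends in a constant region; a resting B cell carries IgM and IgD on its surface, and class switching replaces these constant regions with those of IgG, IgA or IgE. Because each B cell and its daughters keep the V segments they once joined, the mixture of V segments in a tissue records which B cells contribute RNA, and antibody-secreting plasma cells hold far more immunoglobulin RNA per cell than resting B cells. In bulk RNA, fewer cells of a type and less RNA per cell cannot be told apart.

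The 134 members were 49 heavy chain V segments, 64 kappa V segments, 3 lambda V segments, 5 kappa J segments, 8 heavy chain constant region genes, 4 light chain constant region genes and Jchain. Heavy chain pieces lie on chromosome 12, kappa pieces on chromosome 6, lambda pieces on chromosome 16 and Jchain on chromosome 5 of GRCm38. All V members were annotated as V genes: 116 of 216 such genes reached the minimum, against 0 of 130 annotated V pseudogenes. Segments from the whole length of the loci were present. Split at the middle of the annotated V genes, 31 kappa members lay on the side far from the J segments and 33 on the near side, and 26 heavy chain members lay on the far side and 23 on the near side.

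The V segments that set the libraries apart are shown by the last 60 bases of their germline transcript (GENCODE release M21, GRCm38), the stretch of the V exon that borders the joint. Capitals mark the codon of the conserved cysteine. The 4 segments that stood apart in the library of CT6 on day 1 come first, then 2 that stood apart at CT14 on day 2, then 4 kappa segments that were among the most evenly expressed or most abundant.
Igkv8-27: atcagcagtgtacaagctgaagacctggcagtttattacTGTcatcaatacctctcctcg
Igkv6-23: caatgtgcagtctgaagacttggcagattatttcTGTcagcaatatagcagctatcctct
Ighv1-76: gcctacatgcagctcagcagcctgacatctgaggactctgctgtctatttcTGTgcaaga
Ighv1-72: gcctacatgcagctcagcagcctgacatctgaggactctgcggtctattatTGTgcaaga
Igkv6-32: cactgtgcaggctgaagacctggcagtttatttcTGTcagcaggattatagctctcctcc
Ighv6-3: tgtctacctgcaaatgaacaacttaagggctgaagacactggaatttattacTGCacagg
Igkv6-15: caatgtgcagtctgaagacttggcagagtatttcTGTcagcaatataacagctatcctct
Igkv1-117: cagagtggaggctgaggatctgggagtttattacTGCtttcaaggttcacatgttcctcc
Igkv1-110: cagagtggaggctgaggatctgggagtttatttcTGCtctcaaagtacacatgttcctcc
Igkv14-111: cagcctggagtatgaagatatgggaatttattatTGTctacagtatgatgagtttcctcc
Igkv8-27 lies at chr6:70171809-70172270, Igkv6-23 at chr6:70260409-70260955, Ighv1-76 at chr12:115847881-115848331 and Ighv1-72 at chr12:115757984-115758461, each on the minus strand. Members of 1 family are close copies of each other. Over 290 aligned bases Igkv1-117 was 96.9% identical to Igkv1-110, and Ighv1-72 was 99.3% identical to Ighv1-62-3, which had 3 counts, so reads of such pairs may be split or lost in counting and single segments are uncertain to that extent.

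Between 24689964 and 33497078 counts fell on genes in a library. The T cell markers Cd8a, Cd8b1, Cd3e, Cd3d, Cd3g and Trac were strongly expressed and summed to 4309 to 5394 CPM (counts scaled to library size with TMM factors). B cell markers were present throughout at a lower level, with a sum over 20 genes of 428 to 670 CPM. The 12 plasma cell markers summed to 341 to 396 CPM, of which Sec11c gave 141 to 178 CPM and Txndc5 78.7 to 94.5 CPM; the plasma cell surface proteins Sdc1 and Tnfrsf17 were low, Sdc1 at 2.70 to 4.84 CPM and Tnfrsf17 at 0 in 5 libraries and at most 0.186 CPM. Among all 12 libraries CT6 on day 1 stood apart for immunoglobulin transcripts, and results that rest on it are also given without it. That library also had the lowest sum of T cell markers, 4309 CPM. Its sum of 6 stroma and endothelium markers was the highest, 183 CPM against 135 to 171 CPM elsewhere, with Pdpn under 1 CPM in all libraries. Pecam1 gave most of that sum but was not highest in that library, with 158 CPM against 129 to 167 CPM elsewhere. Picked out after their values were seen, Ccl21a, a chemokine of lymph node stroma, was at 10.5 CPM there and at 0.292 to 2.09 CPM elsewhere, Cdh5, an endothelial cadherin, at 11.6 CPM and 2.90 to 6.47 CPM, and Siglech, a plasmacytoid dendritic cell marker, at 84.0 CPM and 39.9 to 66.8 CPM. The sum of 6 plasmacytoid dendritic cell markers, Siglech among them, was 359 CPM there, within the 294 to 410 CPM of the other libraries. The part of other cells in the immunoglobulin values of that library was not tested.

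Ighm, the constant region of IgM, had 633 to 692 CPM on day 2 (median 668) and 662 to 720 CPM on day 1 (median 700). Its highest library was 1.14 times its lowest, while the B cell marker sum varied 1.57-fold over the same libraries. Ighm and the markers both had their highest value at CT22 on day 1, 720 CPM and 670 CPM. At CT2 on day 2, where the marker sum was lowest at 428 CPM, Ighm was at 692 CPM, its highest value of day 2. The ratio of Ighm to the marker sum lay between 1.07 at CT6 on day 1 and 1.62 at CT2 on day 2. Its ratio to the sum of the T cell markers lay between 0.128 at CT2 on day 2 and 0.162 at CT6 on day 1. Which cells gave the Ighm RNA was not tested.

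Ighd, the constant region of IgD that is spliced from the same primary transcript as Ighm, had 53.5 and 78.5 CPM at CT2 on day 2 and day 1, 74.4 and 85.3 CPM at CT6, 58.9 and 76.1 CPM at CT10, 54.1 and 69.6 CPM at CT14, 62.3 and 78.3 CPM at CT18, and 66.2 and 90.0 CPM at CT22. The day 2 library was the lower one at all 6 times, although the ranges of the days overlapped. Its 1.68-fold range over libraries was close to that of the B cell markers, and its ratio to their sum varied 1.34-fold. Counts of Ighm over those of Ighd ranged accordingly from 8.01 at CT22 on day 1 to 12.9 at CT2 on day 2.

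**Figure D1:**
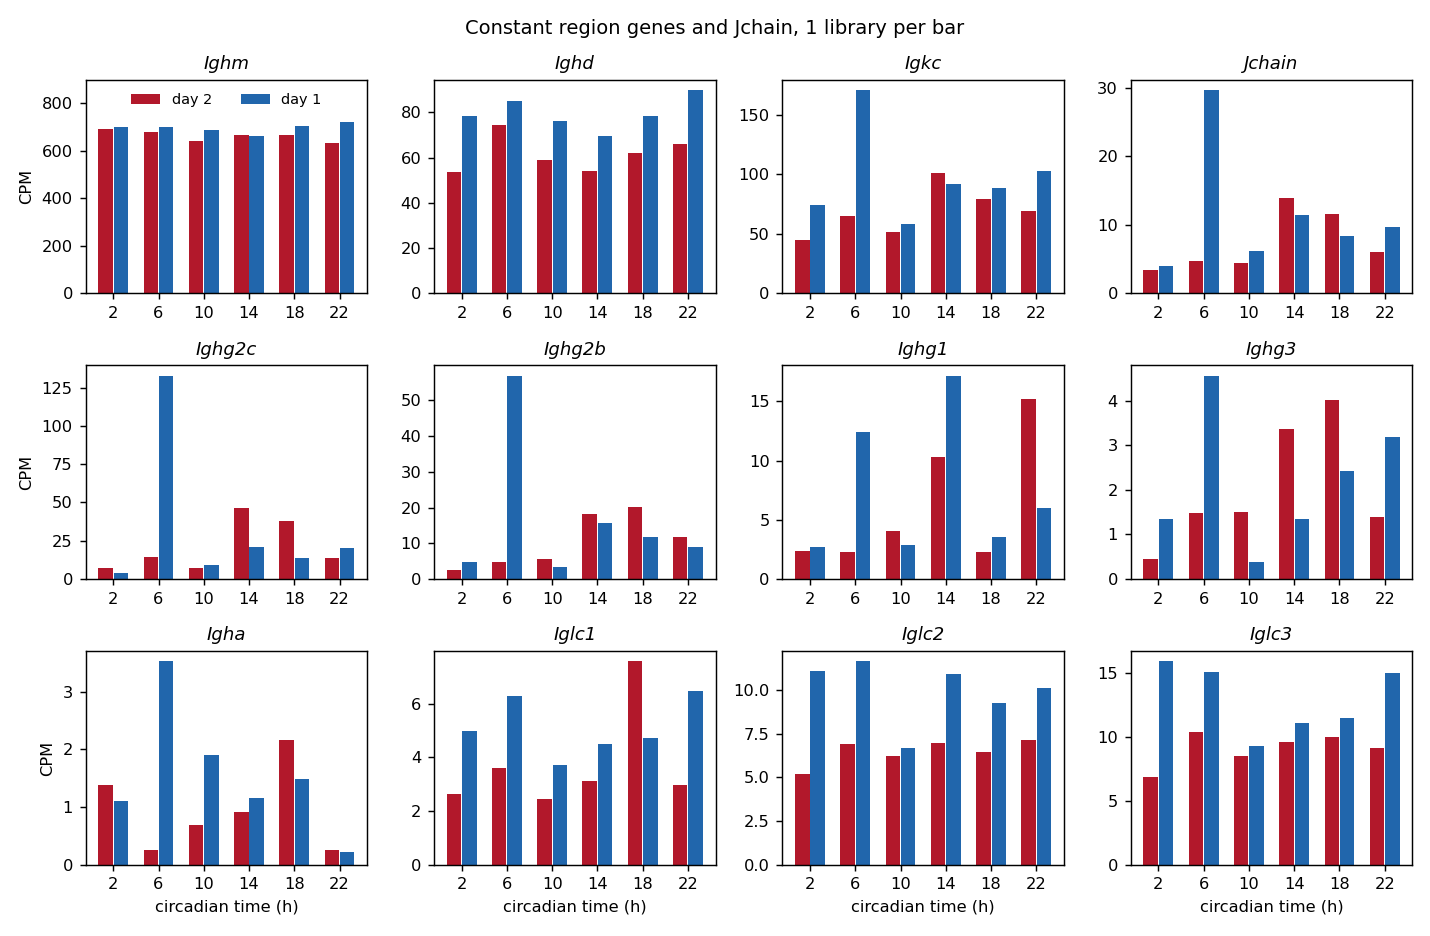
CPM (vertical axes, from 0, a scale of its own in each panel) of Jchain and the constant region genes other than Ighe, by circadian time in hours. Each bar is 1 library, red for day 2 and blue for day 1. Ighm is level at 633 to 720 CPM, whereas Ighg2c reaches 133 CPM at CT6 on day 1 and at most 46.4 CPM in any other library.

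Per length, in TPM (the RSEM estimate scaled to transcript length and library size), Ighm averaged 515 ± 31.2 and Igkc 257 ± 109 (SD over 12 libraries). All light chain constant regions together amounted to 0.547 ± 0.123 of the heavy chain constant regions in TPM, with 0.337 at CT2 on day 2 and 0.779 at CT6 on day 1 as the extremes. With Ighm set aside, light chain constant regions stood at 3.47 ± 0.763 times the heavy chain ones. Light chain RNA in TPM was thus below heavy chain RNA only through Ighm.

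IgG constant regions varied widely between libraries. Ighg2c, the IgG2 gene that C57BL/6 mice carry in place of Ighg2a, had 6.91 and 3.94 CPM at CT2 on day 2 and day 1, 14.3 and 133 CPM at CT6, 7.30 and 9.23 CPM at CT10, 46.4 and 21.2 CPM at CT14, 37.9 and 14.0 CPM at CT18, and 13.9 and 19.9 CPM at CT22. Ighg2b had 2.55 and 4.64 CPM at CT2, 4.73 and 56.9 CPM at CT6, 5.65 and 3.33 CPM at CT10, 18.2 and 15.7 CPM at CT14, 20.1 and 11.8 CPM at CT18, and 11.7 and 9.06 CPM at CT22, in the same order of days. Both genes were highest by far at CT6 on day 1. Leaving that library aside, both libraries of CT14, CT18 and CT22 had more Ighg2b than any library of CT2, CT6 or CT10, a grouping of times that was chosen after the values were seen.

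Ighg1 followed another order. It had 2.33 and 2.71 CPM at CT2 on day 2 and day 1, 2.27 and 12.4 CPM at CT6, 4.07 and 2.87 CPM at CT10, 10.3 and 17.2 CPM at CT14, 2.30 and 3.57 CPM at CT18, and 15.2 and 6.03 CPM at CT22. CT14 on day 1 and CT22 on day 2 thus exceeded the library in which Ighg2c and Ighg2b peaked. Among the counts of the 4 Ighg genes, Ighg1 took from 3.58% at CT18 on day 2 to 36.0% at CT22 on day 2, Ighg2c 31.2% to 64.3%, Ighg2b 20.7% to 37.1%, and Ighg3, which ranged from 0.389 to 4.56 CPM, 2.21% to 10.6%.

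In the counts of all heavy chain constant regions, IgG genes made up 1.61% and 1.59% at CT2 on day 2 and day 1, 2.93% and 20.8% at CT6, 2.57% and 2.02% at CT10, 9.79% and 7.02% at CT14, 8.07% and 3.91% at CT18, and 5.69% and 4.50% at CT22. The 95% Wilson interval at CT6 on day 1 was 20.3% to 21.2%, and that of the next library, CT14 on day 2, was 9.43% to 10.1%; intervals here cover counting error only. Ighm made up 85.2% ± 5.26 (SD, n = 12) of these counts, 70.3% at CT6 on day 1 and 83.3% to 91.2% elsewhere. Ighd made up 8.79% ± 1.17. In TPM, which takes length into account, the IgG share was 29.9% at CT6 on day 1 and 2.36% to 14.8% elsewhere.

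Igha, the constant region of the IgA of mucosal secretions, was rare, with 0.262 to 2.16 CPM on day 2 and 0.219 to 3.53 CPM on day 1. Its lowest libraries were both of CT22 and CT6 on day 2, and its highest was CT6 on day 1. Ighe, the IgE constant region, had 60 counts in all libraries together and none at CT2 and CT18 on day 2; at CT2 on day 2 that count of 0 allows a share of up to 0.0190% of the heavy chain constant region counts by the Wilson interval.

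Igkc, the only kappa constant region, had 44.7 and 73.7 CPM at CT2 on day 2 and day 1, 64.5 and 171 CPM at CT6, 51.1 and 58.1 CPM at CT10, 101 and 92.1 CPM at CT14, 78.7 and 88.7 CPM at CT18, and 68.7 and 103 CPM at CT22. The lambda constant regions Iglc1, Iglc2 and Iglc3 together had 14.7 to 33.0 CPM. Kappa thus made up 77.0% ± 3.83 (SD, n = 12) of light chain constant region counts, between 69.7% at CT2 on day 1 and 83.8% at CT6 on day 1. CT14 on day 2 came next with 83.6%, and these 2 libraries had no common range with the other 10, whose highest share was 78.1%. In TPM the kappa share was 72.7% ± 4.54.

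Iglc1 and the V segment Iglv1, which lies in the same small cluster and is the V segment that usually joins it, were both highest on day 2 in the library of CT18. Iglc1 had 7.57 CPM there and 2.46 to 3.60 CPM in the other day 2 libraries. Iglv1 had 5.05 CPM there and 1.43 to 2.42 CPM in the others. Iglc2 and Iglc3 did not share that high value, with 6.44 and 10.0 CPM at CT18 on day 2, within the range of their other day 2 libraries. Iglc2 and Iglc3 are near copies, and RSEM, which divides shared reads, gave Iglc2 1.42 times its uniquely assigned counts.

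Jchain encodes the small protein that links IgM into pentamers and IgA into dimers and is made in antibody-secreting cells. It had 3.46 and 3.94 CPM at CT2 on day 2 and day 1, 4.69 and 29.7 CPM at CT6, 4.40 and 6.23 CPM at CT10, 13.9 and 11.4 CPM at CT14, 11.6 and 8.38 CPM at CT18, and 5.95 and 9.72 CPM at CT22. CT6 on day 1 again stood highest, followed by CT14 and CT18 on day 2 and CT14 on day 1. The sum of plasma cell markers was 378 CPM at CT6 on day 1, within the range of the other libraries. Within that list Mzb1, a chaperone of immunoglobulin assembly, had 8.62 CPM at CT6 on day 1 and 2.33 to 5.37 CPM elsewhere, and Derl3 1.14 CPM and 0.601 to 1.00 CPM; both were picked out after their values were seen. Whether plasma cells account for the high IgG and Jchain counts was not tested.

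V segments summed to 44.6 and 73.1 CPM at CT2 on day 2 and day 1, 65.9 and 207 CPM at CT6, 51.3 and 62.7 CPM at CT10, 112 and 98.7 CPM at CT14, 94.1 and 93.8 CPM at CT18, and 72.2 and 108 CPM at CT22. The mean was 90.3 ± 42.7 CPM (SD, n = 12), and without CT6 on day 1 it was 79.7 ± 22.8 CPM. Relative to the B cell markers, kappa V segments stood at 0.194 of the marker sum at CT6 on day 1 and at 0.0597 to 0.137 in the other libraries. B cell markers themselves summed to 655 CPM at CT6 on day 1, below the 670 CPM of CT22 on day 1.

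**Figure D2:**
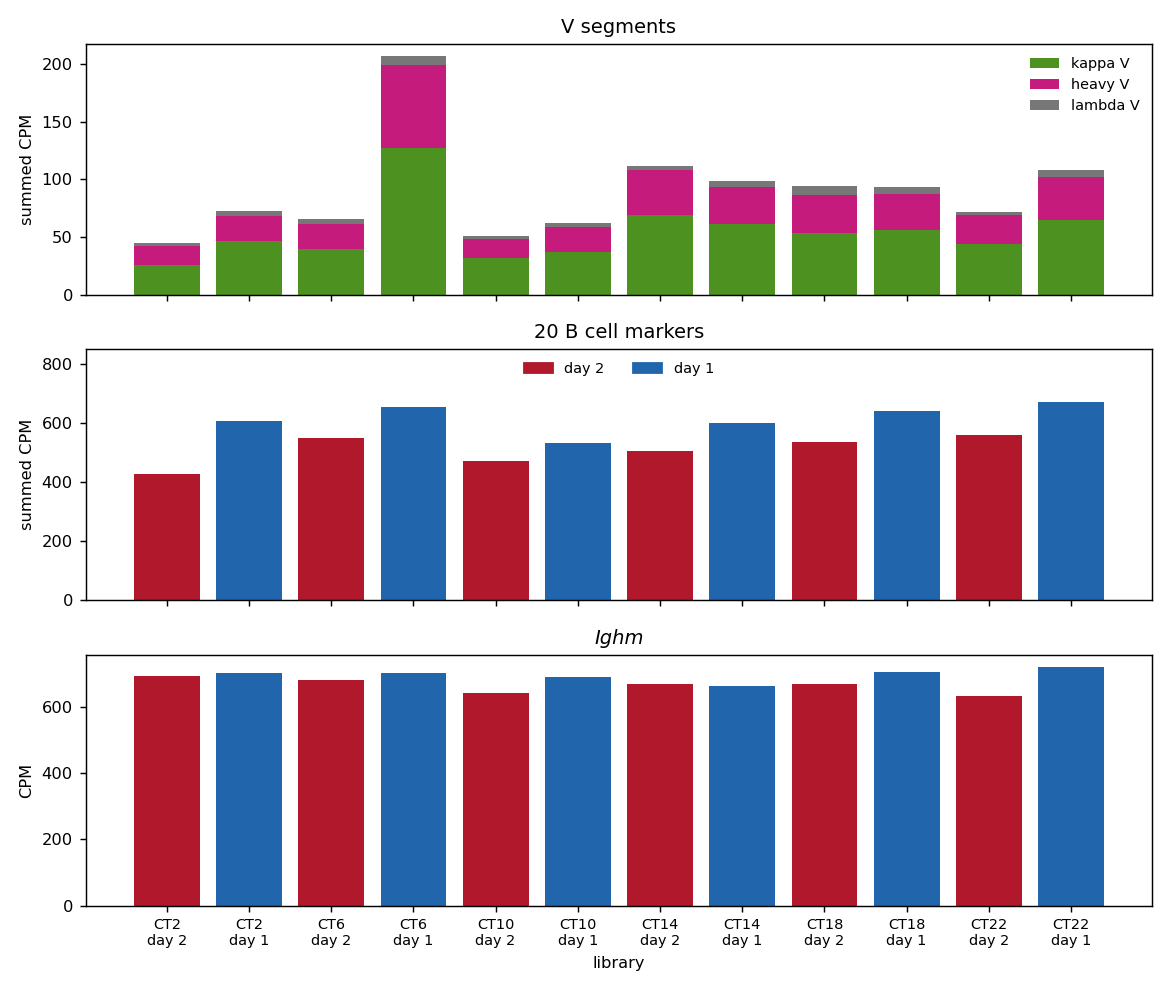
Summed CPM of V segments (top, stacked by class), summed CPM of 20 B cell markers (middle) and CPM of Ighm (bottom) in each library, day 2 left of day 1 at each circadian time; red is day 2 and blue day 1. The V sum is 207 CPM at CT6 on day 1 and 44.6 to 112 CPM elsewhere, while Ighm stays between 633 and 720 CPM.

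Single V segments had larger coefficients of variation than most other genes. The median coefficient of variation over 12 libraries was 61.4% for the 106 V segments tested, 20.04% for the 20 B cell markers and 11.6% for all 16396 genes tested. Low counts inflate this measure, so genes of similar level are the closer comparison. With a median library of 1 to 5 CPM, a window that 1 high library does not fill, 16 V segments had a median coefficient of 41.9% and all 2783 tested genes of that range 19.8%; without CT6 on day 1 these were 36.6% and 19.5%. Of those 16 segments 1, Igkv6-23, had a library at 5 or more times its median (6.25%), against 10 of the 2783 genes (0.359%).

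Over all 116 V segments, 31 (26.7%) reached 5 times their median in some library, 28 of them in 1 library and 3 in 2 (Ighv1-76, Igkv3-1 and Igkv4-86). Among genes tested, 29 of 106 V segments did so (27.4%), against 102 of all 16396 genes (0.622%). All of the 31 but Igkv6-23 had a median library under 1 CPM, so the percentage rests largely on segments with low counts. Members were also chosen by counts summed over all libraries, so 1 high library could carry a segment over the count minimum. Igkv14-130 had 40 of its 68 counts at CT14 on day 2, and Igkv4-79 had 100 of its 149 at CT6 on day 1. Neither would have reached the minimum without that library. This choice favours segments with 1 high library, and its part in the percentage was not tested. The highest library differed between the 31 segments. CT6 on day 1 was the highest library for 11 segments, CT14 on day 2 for 7, CT18 on day 2 for 6, CT14 on day 1 for 3, and CT22 for 2 on day 2 and for 2 on day 1. None of the 31 had its highest value at CT2, at CT10, at CT18 on day 1 or at CT6 on day 2. The same library held high heavy and high kappa segments side by side: 6 heavy and 5 kappa segments at CT6 on day 1, and 4 heavy and 3 kappa segments at CT14 on day 2.

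**Figure D3:**
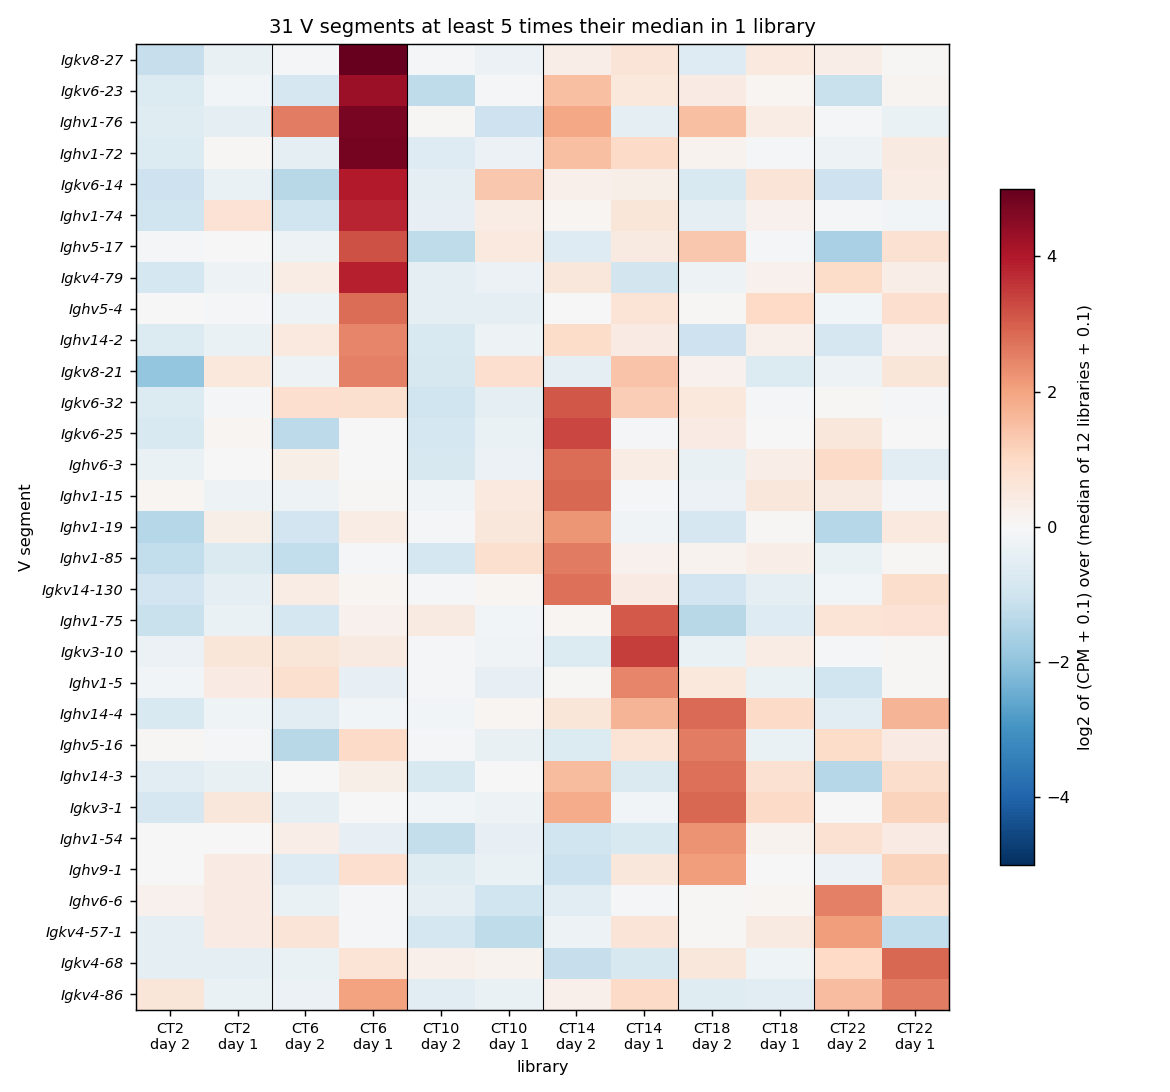
Log2 ratio of CPM + 0.1 to the median of 12 libraries + 0.1 (colour, red above and blue below the median) for the 31 V segments that reached 5 times their median in at least 1 library; columns are libraries, day 2 left of day 1 at each circadian time. Blocks of red show 11 segments at CT6 on day 1 and 7 at CT14 on day 2, each high in that library and near its median in most others.

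Igkv8-27 was the extreme case. It had 0.150 and 0.334 CPM at CT2 on day 2 and day 1, 0.416 and 27.9 CPM at CT6, 0.444 and 0.354 CPM at CT10, 0.606 and 0.778 CPM at CT14, 0.256 and 0.683 CPM at CT18, and 0.599 and 0.475 CPM at CT22. The 784 counts at CT6 on day 1 were 60.8 times the median library in CPM and made up 22.0% of the kappa V counts of that library. Igkv6-23 had 22.9 CPM in that library, against 3.33 CPM in the next, CT14 on day 2, and 0.403 to 1.62 CPM in the remaining ones.

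Among heavy chain segments Ighv1-76 and Ighv1-72 were high in the same library. Ighv1-76 had 2.76 and 13.2 CPM at CT6 on day 2 and day 1, and 0.142 to 1.79 CPM at other times, so both libraries of CT6 were its highest. Ighv1-72 had 0.151 and 9.30 CPM at CT6 on day 2 and day 1, and 0.113 to 0.879 CPM at other times, so 1 library alone stood out. The first took 370 of 2018 heavy V counts of CT6 on day 1 (18.3%) and was also the leading heavy segment of CT6 on day 2. RSEM placed 1.48 times as many reads on Ighv1-72 as were counted uniquely. Outside the naming rule and chosen after their values were seen, Igkv6-14 reached 5.52 CPM, Ighv1-74 4.74 CPM and Igkv4-79 3.56 CPM in that library, each at least 6.78 times its second highest library.

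CT14 on day 2 had other leading segments. Igkv6-32 had 8.37 and 2.21 CPM at CT14 on day 2 and day 1 and 0.403 to 1.67 CPM at other times. Ighv6-3 had 4.94 and 0.840 CPM at CT14 and 0.323 to 1.35 CPM at other times. Igkv10-94 was high in 3 libraries of day 2, with 3.03 CPM at CT6, 3.09 CPM at CT14 and 2.49 CPM at CT18, and had 0.225 to 0.926 CPM in the other 9. Ighv8-8 was high in 1 library of each day, with 2.55 CPM at CT14 on day 2 and 2.56 CPM at CT6 on day 1.

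Igkv14-111 was high in both libraries of 1 time. It had 1.43 and 1.86 CPM at CT2 on day 2 and day 1, 1.25 and 1.57 CPM at CT6, 0.887 and 1.66 CPM at CT10, 3.76 and 3.70 CPM at CT14, 2.41 and 1.29 CPM at CT18, and 2.21 and 2.37 CPM at CT22. The libraries of CT14 lay above all others by more than the gap between them. Ighv14-4 reached 2.85 CPM at CT18 on day 2 and 0.150 to 1.28 CPM elsewhere, Igkv4-68 3.95 CPM at CT22 on day 1 and 0.152 to 1.01 CPM elsewhere, and Ighv6-6 2.21 CPM at CT22 on day 2 and 0.106 to 0.585 CPM elsewhere.

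**Figure D4:**
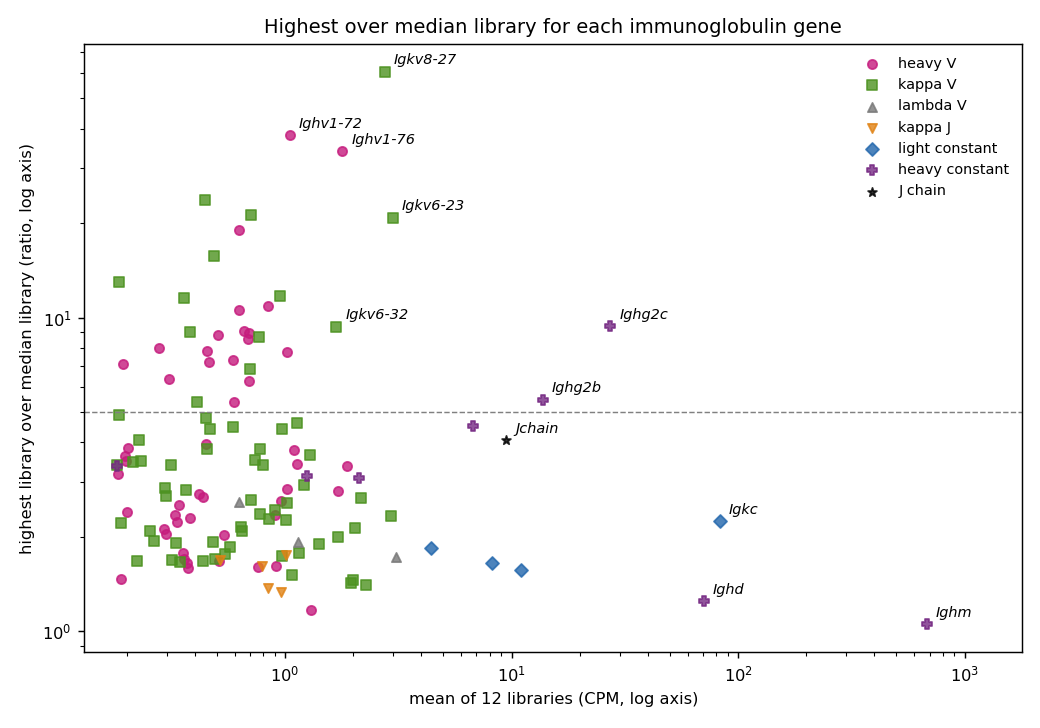
Ratio of the highest to the median library (vertical, log axis) against the mean CPM of 12 libraries (horizontal, log axis), 1 point for each immunoglobulin gene, by class; the dashed line marks a ratio of 5. Igkv8-27 lies at 60.8, and the constant region genes Ighm and Ighd lie near 1.

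A few abundant segments were steady instead. Igkv1-117 had 1.21 to 3.44 CPM, Igkv1-110 1.16 to 2.77 CPM and Igkv6-15 1.01 to 2.94 CPM over all 12 libraries, with coefficients of variation of 28.7%, 26.8% and 28.7%. Igkv6-15 ends in nearly the same letters as Igkv6-23 in the sequences above, yet it had 2.78 CPM at CT6 on day 1 where Igkv6-23 had 22.9 CPM. The other abundant segments were less steady: Igkv10-96 ranged from 0.605 to 6.25 CPM, Igkv1-135 from 0.973 to 5.41 CPM and Ighv3-6 from 0.526 to 5.13 CPM.

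The spread of counts over segments can be given as an effective number, the number of equally used segments that would give the same inverse Simpson index. For kappa V segments it was 10.8 at CT6 on day 1, 23.7 at CT14 on day 2 and 28.6 to 42.4 in the other 10 libraries. For heavy V segments it was 13.3 at CT6 on day 1, 20.6 at CT14 on day 2 and 23.1 to 33.0 in the others. The 5 leading kappa segments held 51.8% of kappa V counts at CT6 on day 1 and 22.9% to 35.5% elsewhere. All 64 kappa members were still detected at CT6 on day 1, as were all 49 heavy chain members.

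**Figure D5:**
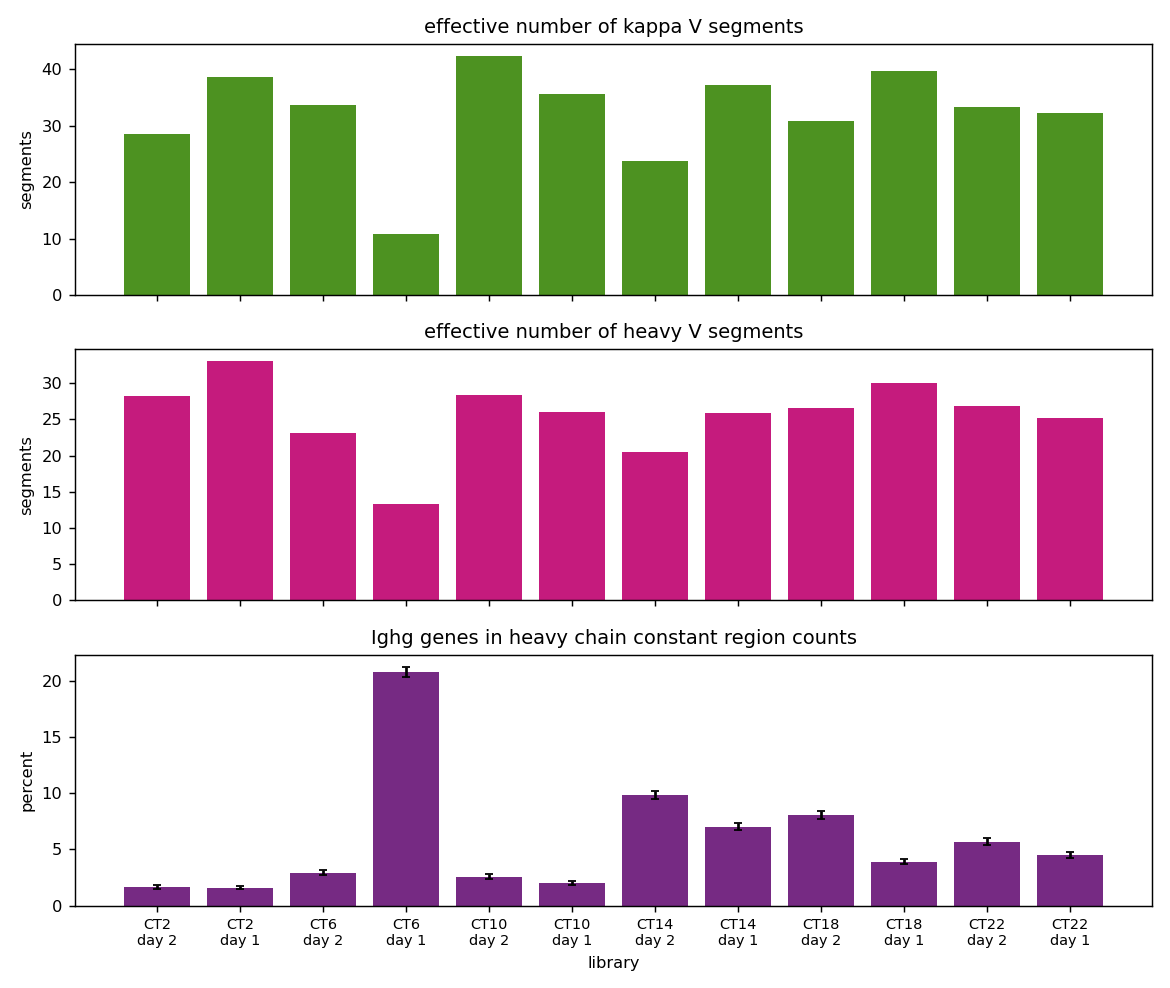
Effective number of kappa V segments (top) and heavy V segments (middle), and percentage of IgG genes in heavy chain constant region counts with 95% Wilson intervals (bottom), in each library, day 2 left of day 1 at each circadian time. CT6 on day 1 has the lowest numbers, 10.8 and 13.3, and the highest IgG percentage, 20.8%; CT14 on day 2 comes next in all 3 panels.

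By family, Ighv1, the largest heavy chain family with 27 members, took 58.3% ± 5.15 of heavy V counts (SD, n = 12), and no library left the range of 48.7% to 63.9%. Family shares of kappa moved more. Igkv8 took 28.3% of kappa V counts at CT6 on day 1 and averaged 8.39% ± 6.54, and Igkv6 averaged 16.0% ± 6.98 with its highest share of 33.0% at CT14 on day 2. Ighv14 had its highest share, 16.6% of heavy V counts, at CT18 on day 2.

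Kappa J segments, the short pieces that lie between the V segments and Igkc, were shown in full because the deposited estimates differ most on them. Capitals mark TTCGG, the letters that encode the start of the conserved phenylalanine and glycine motif and that a script searched on the coding strand; Igkj3 does not hold them.
Igkj1: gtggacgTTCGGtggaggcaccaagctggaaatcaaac
Igkj2: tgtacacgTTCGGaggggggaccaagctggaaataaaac
Igkj3: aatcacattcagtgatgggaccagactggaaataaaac
Igkj4: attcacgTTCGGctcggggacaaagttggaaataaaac
Igkj5: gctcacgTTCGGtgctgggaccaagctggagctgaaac
They lie in this order from chr6:70722562-70722599 for Igkj1 to chr6:70723886-70723923 for Igkj5, on the plus strand. Unique counts over all libraries were 173, 266, 281, 337 and 321 in the order of the lines. Igkj3, which is not used in mouse kappa chains, thus had fewer than Igkj4 and Igkj5 and more than Igkj1 and Igkj2. RSEM gave them 4, 5, 0, 0 and 0 expected counts, with an effective length of 0 for pieces this short. Their summed level of 2.44 to 4.01 CPM on day 2 and 3.53 to 5.52 CPM on day 1 varied 2.26-fold, less than that of the V segments.

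Circadian time was then tested over both days. After a filter on low counts 124 members entered the tests and 10 did not. In edgeR's quasi-likelihood F test over the 6 times, no member passed at an adjusted p under 0.05, while 0.256% of all 16396 genes passed. At an unadjusted p under 0.05 there were 37 members (29.8%), against 12.7% of all genes. DESeq2 called 6 of the 124 members, against 3.21% of all genes: Ighv1-76, Igkv6-32, Ighv1-72, Igkv8-27, Igkv14-111 and Ighg2c. The smallest adjusted p-values in edgeR were 0.0764 for Ighv1-76, 0.0775 for Igkv6-32 and 0.127 for both Igkv4-68 and Igkv8-27; Ighg2c had 0.228, Jchain 0.369 and Ighm 0.960.

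The libraries of 1 time were often unlike each other. At CT6 the libraries of day 2 and day 1 differed, over members, by a chi-square of 69.4 per degree of freedom, against 4.79 to 14.5 at the other times. Over all genes the value was 10.4 at CT6. Members also differed more than all genes at CT14, CT18 and CT22 (9.19 to 14.5, against 2.87 to 5.76), but less at CT2 (8.20, against 36.7) and at CT10 (4.79, against 7.13). For the same relative difference this value grows with counts. Members tested had a median mean of 0.701 CPM and all genes tested 13.9 CPM, so the sets are not on 1 scale. Means by time were highest at CT6 for 42 of 124 members (33.9%), and 13.6% of all genes were highest at that time. The highest single library was CT6 on day 1 for 36 members (29.0%), against 10.2% of all genes. Lowest means fell at CT10 for 52 members (41.9%, against 19.9% of all genes) and at CT2 for 42 (33.9%, against 19.4%).

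Leaving out 1 library at a time changed the members called among times. Without CT6 on day 2, which left CT6 to the day 1 library alone, 10 of 133 members passed (7.52%, against 0.264% of all genes: Igkv8-27, Ighv1-72, Igkv6-23, Ighg2b, Jchain, Igkv4-79, Ighv1-74, Ighv1-76, Ighg2c and Igkv6-14), while without CT6 on day 1 none passed, against 0.0828% of all genes. Without CT2 on day 2 there were 7 members (5.26%), a smaller share than the 10.2% of all genes, and without CT2 on day 1 there were 5 (3.79%, against 3.91% of all genes), so calls rose in general in these fits. Igkv6-32, Igkv3-10, Ighv6-6 and Igkv4-68 each passed as the 1 member called when a library of CT14 or CT22 was left out (0.758% or 0.763% of the members tested). Of all genes 0.0352% and 0.0411% passed without the CT14 library of day 2 and of day 1, and 0.112% and 0.124% without the CT22 library of day 2 and of day 1. A lone library of a time is assumed in such a fit to vary like the rest.

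A wave of 24 h period was asked for next, as a cosine and a sine together. No member and no gene passed in edgeR (0%), and at an unadjusted p under 0.05 there were 25 members (20.2%) against 13.3% of all genes. DESeq2 called no member either, while it called 1.5% of all genes. The 4 members of smallest p were the V segments Ighv6-6, Ighv14-4, Ighv1-85 and Igkv3-1, with amplitudes of 1.46, 1.60, 1.63 and 1.73 on the log2 scale and adjusted p-values in edgeR's quasi-likelihood test of 0.238 each. Each of these 4 had its highest library on day 2, at CT22, CT18, CT14 and CT18 in the same order. Igkv3-1 also passed 5 times its median at CT14 on day 2, with 0.788 CPM. The second highest library of Ighv14-4 was CT22 on day 1 with 1.28 CPM, against a median of 0.319 CPM. The median amplitude of the 124 members was 0.44, against 0.10 for all genes. Genes of similar level are again the closer comparison. With a median library of 1 to 5 CPM it was 0.30 for 16 V segments and 0.16 for all 2783 tested genes of that range. No constant region gene and not Jchain had an unadjusted p under 0.05 for the wave; Ighm had an amplitude of 0.03.

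Day 2 was set against day 1 beside the 24 h wave. No member passed in edgeR's quasi-likelihood F test, nor did any gene (0%). At an unadjusted p under 0.05 there were 31 members (25.0%) against 1.82% of all genes, and 30 of them had lower values on day 2, against 1.16% of all genes. The log2 difference was negative for 105 of 124 members, with a median of -0.49, and the median over all genes was 0.00. Without CT6 on day 1 it was negative for 96 of 132 members, and their median was -0.26, nearer to that of all genes. DESeq2 called 2 members, Ighd and Iglc2, and 0.0366% of all genes.

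Ighd had a mean of 61.6 ± 7.93 CPM in the 6 libraries of day 2, against 79.6 ± 7.15 CPM in the 6 of day 1 (SD). Its log2 difference was -0.37 ± 0.08 (SE), with an adjusted p of 1 in edgeR's quasi-likelihood test. Iglc2 had 5.22 to 7.15 CPM on day 2 (median 6.68) and 6.69 to 11.6 CPM on day 1 (median 10.5), and its log2 difference was -0.61 ± 0.13. Ranges of the days overlapped for both genes, for Iglc2 through the library of CT10 on day 1. Iglc3 showed a difference of -0.49 ± 0.14, Igkv4-55 of -1.46 ± 0.38 and Ighv1-80 of -1.11 ± 0.30. Ighm, in contrast, had a difference of -0.07 ± 0.04.

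B cell markers moved the same way. Their sum was 508 ± 50.5 CPM in the 6 libraries of day 2, against 617 ± 50.1 CPM in the 6 of day 1 (SD), lower on day 2 at all 6 times, and 19 of the 20 genes had a negative log2 difference, with a median of -0.35. With the marker sum as a covariate, 48 of 124 members had a negative difference and the median was 0.14, so the direction of the members' median depends on that term. In that edgeR fit 10 of 124 members had an unadjusted p under 0.05, against 1577 of all 16396 genes. IgG genes had differences of -0.22 to -0.72 that turned positive without CT6 on day 1. The sum of CD8 T cell markers was 4831 ± 318 CPM for day 2, against 4808 ± 317 CPM for day 1.

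Lists of genes that act with antibodies were read from the same fits. Of all 16396 genes, 12.7%, 13.3% and 1.82% had an unadjusted p under 0.05 in edgeR's tests of times, wave and day. Of 14 partners and signal transducers of the B cell receptor, none passed the test of times, of the wave or of the day in edgeR; 4, 2 and 5 had an unadjusted p under 0.05 in these tests, and the 5 were lower on day 2. Cd79a and Cd79b, which carry the signal of the surface antibody, had 20.2 to 44.8 CPM and 33.6 to 58.4 CPM. Plcg2, the phospholipase downstream of the receptor, had the smallest p of the list in the test of times, with 24.1 to 53.6 CPM and an adjusted p of 0.157. Of 15 tested genes of rearrangement, immunoglobulin transcription and mutation none passed, and 0, 0 and 4 had an unadjusted p under 0.05; Rag2, which cuts the segments for joining, was at 0 in 8 libraries and at most at 0.0731 CPM. Of 10 tested genes of antibody secretion none passed, and 3, 3 and 0 had an unadjusted p under 0.05, with Xbp1, the transcription factor of secretory cells, at 36.4 to 56.9 CPM. Of 11 tested receptors of antibodies none passed and 3, 6 and 2 had an unadjusted p under 0.05, among them Fcgr1, the high-affinity IgG receptor of monocytes and macrophages, with 1.28 to 26.01 CPM.

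Which reads are credited to a segment depends on the counting. For the 116 V segments the RSEM expected counts were a median of 0.739 times the uniquely assigned counts, from 0.365 to 1.76, and 110 of them were below 1. By RSEM 112 of the 116 would have reached 60 counts. Igkv2-137 is the largest case in the other direction, with 143 expected counts and 1 unique count, and it is not a member for that reason; it was picked out after its values were seen.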

How the data were processed

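Polyadenylated RNA of 12 libraries (KAPA HyperPrep after TRIzol and RNeasy, per the labels) was analysed from the deposited tables. The submitters' processing notes name bcl2fastq 2.19, Trimmomatic 0.35, STAR 2.5.1b and RSEM 1.2.28 and the build GRCm38. The authors deposited unnormalised read counts per gene in STAR's layout, and column 4, the stranded column, was used; the 4 rows that name no gene held 29.3% to 31.2% of the counts and were left out. The authors also deposited RSEM expected counts (estimated counts, rounded here before tests) and TPM, and the deposited lengths, effective lengths and posterior standard deviations count as further values. Of 50600 identifiers 50376 matched a symbol of GENCODE release M21, which also gave coordinates and sequences.

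Counts were fitted with edgeR 4.0.16 in R 4.3.3 on all 16396 genes kept by filterByExpr, with TMM scaling and Benjamini-Hochberg adjustment over all of them. CPM values use the TMM factors. DESeq2 1.42.0 served as an alternative. The designs tested were 6 circadian times, a 24 h cosine and sine, and day 2 against day 1 beside that wave. The code was checked on simulated counts.

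Named members were every constant region gene and Jchain, the 10 V or J segments of highest mean CPM, the 8 with the largest ratio of highest to median library among those averaging 1 CPM or more, the 4 members of smallest p in each test, the 3 just inside and the 3 just outside the count minimum, and of each list of other genes the 2 of smallest p among times. Members and lists were chosen with earlier results of these data known. The labels use the replicate number for the day, so libraries of 1 day might be linked. The main tests of times and wave had no day term, and an alternative fit took the day as a block. Deviations correlated between times from -0.46 to 0.20 (median 0.02), with 3 of 15 pairs above 0.1.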

Additional observations from a re-analysis of the deposited data

Results flagged for a closer look

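Within the 6 libraries of a day, the highest or lowest value was compared with its nearest neighbour by Dixon's criterion at 95% over 88 groups of values, and it marked 26. Chance flags about 1 in 20 groups, but many of these genes were named for a high library or a small p-value, so that rate does not apply and the number marked is not evidence. On day 2 the library of CT14 was far above the others for Igkv6-32 at 8.37 CPM (next 1.67), Ighv6-3 at 4.94 CPM, Igkv6-23 at 3.33 CPM, Ighv8-8 at 2.55 CPM, Ighv1-85 at 2.39 CPM, Ighv1-72 at 0.879 CPM and the kappa share of light chain constant regions at 83.6% (next 78.1%). On day 2 the library of CT18 was far above for Iglc1 at 7.57 CPM, Iglv1 at 5.05 CPM and Ighv14-4 at 2.85 CPM, and that of CT22 for Ighv6-6 at 2.21 CPM.

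On day 1 the library of CT6 was far above the others for Ighg2c at 133 CPM (next 21.2), Ighg2b at 56.9 CPM (next 15.7), Jchain at 29.7 CPM (next 11.4) and the IgG share of heavy chain constant regions at 20.8% (next 7.02%). It was also far above for Igkv8-27 at 27.9 CPM, Igkv6-23 at 22.9 CPM, Ighv1-76 at 13.2 CPM, Ighv1-72 at 9.30 CPM and Igkv1-135 at 5.41 CPM. The sums that contain these genes were marked with it: 1442 CPM for all members (next 1106), 207 CPM for V segments (next 108), 127 CPM for kappa V segments (next 64.6) and 71.9 CPM for heavy V segments (next 37.2). Elsewhere on day 1, Igkv4-68 at CT22 stood at 3.95 CPM and Igkv1-117 at CT10 was lowest at 1.88 CPM. Several of these values share reads of the same library and are not separate observations.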

How the results depend on the processing

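The number of members called among circadian times, 0 in edgeR, was 6 in DESeq2 (4.84%, against 3.21% of all genes) and 78 with no filter on low counts (58.2%, against 7.17%), and 0 to 10 when 1 library was left out (0% to 7.52%, against 0.0352% to 10.2% of all genes); without a library the filter kept more genes, since a time then had 1 library. For the 24 h wave the 0 became 12 with no filter (8.96%, against 1.08% of all genes), and for day 2 against day 1 the 0 became 2 in DESeq2; leaving out any library gave 0 for both. The cause of the rise without a filter was not tested. RLE scaling, unstranded counts, RSEM expected counts, the B cell covariate and circadian time as a factor left these counts at 0. With the day as a replicate block, 0 members passed among times and 0 for the wave, so this block changed no call of a member.

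Day differences, none past the threshold, changed sign with the B cell covariate for Jchain to 0.77, Igkc to 0.26, Ighe to 0.23, Ighg2c to 2.18, Ighg2b to 1.90, Ighg1 to 0.94, Ighg3 to 1.70 and Iglc1 to 0.0020. With 1 library left out they ranged from -0.86 to 0.71 for Ighg2c, -0.95 to 0.36 for Ighg2b, -1.03 to 0.15 for Ighg1, -0.52 to 0.41 for Ighg3 and -1.57 to 0.018 for Ighe; the highest value came without CT6 on day 1 for the 4 IgG genes and without CT10 on day 1 for Ighe, and Ighg1 was also positive without CT14 on day 1 (0.09) and Ighg3 without CT2 on day 2 (0.12). The mean sum of all members, 1012 CPM, was 1365 in TPM, a scale per length, and 973 to 1027 with 1 library left out; the mean kappa share of 77.0% was 72.7% in TPM and 76.4% to 77.7% with 1 library left out. The shares of Ighm, Ighd, Ighg, Igha and Ighe moved by less than their SD in every alternative run. Depth limits single segments: a segment at 1 CPM rests on about 25 to 33 counts in a library.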
